A study of Mus musculus with 21 samples.

Results

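Cells make most of their ATP by passing electrons along the mitochondrial respiratory chain, and 89 genes for subunits of this chain are described here in organoids grown from mouse mammary cells. They were selected by name from the GENCODE vM21 annotation. The name rule took the Nduf genes of complex I without their assembly factors and without Ndufa4l2, Sdha to Sdhd of complex II, the Uqcr genes of complex III, the Cox4 to Cox8 subunits of complex IV, the Atp5 genes of the ATP synthase (complex V) and the protein genes of the mitochondrial DNA, written with the prefix mt-. This gave 98 protein-coding genes of the 55536 gene IDs in the count table. The 89 were then chosen by their measured counts, since a gene had to reach 10 counts in at least 3 of the 18 original libraries. Of the 89 genes, 80 lie in the nucleus (37 of complex I, 4 of complex II, 8 of complex III, 14 of complex IV and 17 of complex V) and 9 in the mitochondrial DNA (6 of complex I, 1 of complex III and 2 of complex IV). Complexes were assigned by gene name throughout, so Ndufa4, a complex IV subunit with a complex I name, is counted under complex I.

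Complexes I and II feed electrons from NADH and succinate into the chain, complex III passes them to cytochrome c, complex IV hands them to oxygen, and complex V uses the resulting proton gradient to make ATP. Every complex other than complex II combines subunits that are made in the cytosol from nuclear genes and imported with subunits translated inside the organelle from mitochondrial DNA. The genes of both genomes must therefore be expressed together for a working chain, and several subunits of complex IV come in alternative isoforms that differ between tissues and oxygen levels.

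Organoids were wild type (WT) or homozygous for the ATLD1 allele of Mre11 (Mre11ATLD1/ATLD1, called ATLD), a hypomorphic allele of the nuclease in the DNA-break-binding Mre11 complex. In both genotypes the oncogene neuT, an activated form of the receptor kinase Erbb2, was switched on, and RNA was taken at day 0, day 14 and day 28 of activation. Each of the 6 groups had 3 libraries, and replicate 1 of each WT day was sequenced a second time with the ATLD libraries. No culture without neuT at day 14 or 28 was analysed here, so effects of neuT and of culture time cannot be told apart. Whether the 3 replicates of a group are separate animals or cultures is not stated. The p-values measure the spread between these libraries, which may be technical. Original WT libraries held 30905703 to 50879106 counts, resequenced ones 46532851 to 48887808 and ATLD libraries 46331204 to 51757203. Mre11a itself lay at 42.2 to 58.6 CPM (TMM-scaled counts divided by library size, times 1e+06) in the 12 WT libraries and at 14.1 to 17.1 CPM in the 9 ATLD libraries. The epithelial identity given in the labels was checked by marker lists: all 5 luminal and all 5 basal markers exceeded 1 CPM in each genotype, adipocyte markers summed to at most 0.301 CPM, and testis markers to at most 0.182 CPM. WT replicates 1 and 3 of day 14 and replicate 2 of day 28 stood apart from the other libraries by low counts of GC-rich genes (log2 difference of GC-rich against GC-poor genes of -1.04, -1.01 and -0.78, against -0.41 to 0.70 in the other 15 original libraries). Calls that were lost without these 3 libraries are named beside the results.

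Before the groups are compared, the 13 mitochondrially encoded genes need a check of what was counted, because pieces of mitochondrial DNA have been copied into the nuclear genome. The 5 genes mt-Nd4l, mt-Co2, mt-Co3, mt-Atp6 and mt-Atp8 held at most 17 counts in any original library, although they code for core subunits of complexes I, IV and V. The other genes of the same genome, apart from mt-Nd3, held 21019 (mt-Nd6) to 856061 (mt-Co1) counts. Transcripts of all mt genes were aligned to all other GENCODE vM21 transcripts with blastn. Near-identical hits, with at least 99% identity, covered 99.9% of mt-Co3, 99.6% of mt-Co2, 99.6% of mt-Atp6 and 99% of mt-Nd4l. These hits were the pseudogenes Gm28437, Gm28661, Gm10925 and Gm10222, which with Gm28438, Gm28439 and Gm29216 lie in 1 stretch of chromosome 1 (mm10 chr1:24611535-24616197). For mt-Atp8 the best hit by length and identity, Gm28925, was 81.4% identical over 167 bases. No hit of at least 50 aligned bases reached 99% identity with mt-Atp8. The gene mt-Atp8 starts 69 bases after mt-Co2 and overlaps mt-Atp6 by 43 bases. The 233 bases between the nuclear copies of mt-Co2 and mt-Atp6 hold no transcript on the list. Gene mt-Nd3, with 132 to 613 counts, differed from its copy Gm28438 at 1 of 345 aligned bases, and mt-Cytb from Gm11410 at 81 of 1142. The sequences of 60 bases from each pair show the contrast between a gene that is nearly lost from the counts, one that is low and one that is abundant. Capitals mark the bases that differ between a gene and its nuclear copy.
mt-Co2 (bases 121 to 180): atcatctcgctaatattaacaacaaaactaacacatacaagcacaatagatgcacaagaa
Gm28661: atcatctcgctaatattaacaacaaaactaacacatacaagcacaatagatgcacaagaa
mt-Nd3 (bases 1 to 60): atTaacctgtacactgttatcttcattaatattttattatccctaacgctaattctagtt
Gm28438: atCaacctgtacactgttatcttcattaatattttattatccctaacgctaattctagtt
mt-Cytb (bases 122 to 181): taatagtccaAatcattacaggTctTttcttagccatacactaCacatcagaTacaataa
Gm11410: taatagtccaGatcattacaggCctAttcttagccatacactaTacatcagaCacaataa

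The windows hold 0 mismatches for mt-Co2, 1 for mt-Nd3 and 5 for mt-Cytb, whose highest counts in an original library were 13, 613 and 422254. Near-identical partial copies covered 63.6% of mt-Nd4 and 31.3% of mt-Co1, and the pseudogenes of the stretch held at most 53 counts each. A full-length copy of mt-Co1 on chromosome 2, Gm13340, was 97.6% identical and held up to 3132 counts. How reads that match more than 1 place were counted is not given in the sources used here, so the part of the copies in these low counts was not tested. Levels of mt-Co3, mt-Nd3, mt-Nd4 and mt-Co1 are uncertain for this reason. The level of mt-Nd6 is uncertain for another reason. It alone of the mitochondrially encoded protein genes lies on the minus strand, and the strand setting of the counting is not given. The gene mt-Co3 passed the count filter through 3 ATLD libraries alone, with at most 5 counts in any original WT library and 3 to 17 in the ATLD libraries. It is therefore left out of the statements on 8 mitochondrially encoded genes below and enters only the shares and medians given for 9. Just outside the filter stood mt-Co2, with 1 library at 10 counts or more, and just inside it mt-Co3 with 3. The muscle and testis isoforms Cox6a2, Cox7b2, Cox8b and Cox8c and a second Atp5o ID were not kept either, nor were mt-Nd4l, mt-Atp6 and mt-Atp8.

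**Figure D1:**
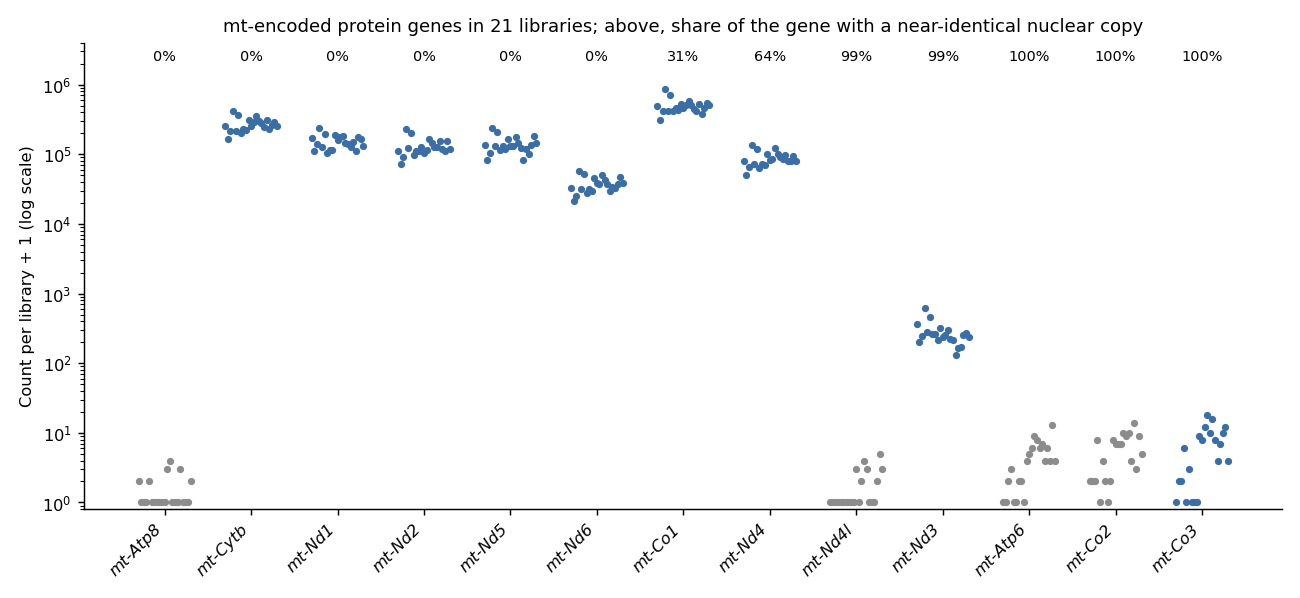
Raw counts plus 1 (log scale) of the 13 mitochondrially encoded protein genes, one point per library, 21 libraries per gene, ordered within each column by group. Percentages give the share of the gene covered by a nuclear transcript of at least 99% identity. Grey genes failed the count filter. The 4 genes covered from 99% upwards other than mt-Nd3 stay at or below 17 counts, as does mt-Atp8.

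Apart from mt-Nd3, transcripts of the 8 mitochondrially encoded genes were more abundant per length than any nuclear subunit in WT organoids at day 0. There mt-Co1, the catalytic subunit of complex IV, reached 6094 CPM per kb of gene length. Cytochrome b of complex III (mt-Cytb) reached 4319 CPM per kb, and mt-Nd1 3409, mt-Nd2 2050.3, mt-Nd5 1370.0, mt-Nd6 1181 and mt-Nd4 1091 CPM per kb. On the same scale and in the same group the highest nuclear subunits were the catalytic-head subunits Atp5a1 and Atp5b of the ATP synthase at 255 and 226, followed by Cox6b1 at 189.6 and Cox8a at 126 CPM per kb. Median levels of the nuclear subunits were 29.3 CPM per kb in complex I, 49.1 in complex II, 58.5 in complex III, 45.7 in complex IV and 38.3 in complex V. The low-count mt-Nd3 reached 17.9 CPM per kb, below the nuclear median of complex I. The deposited gene length covers all annotated exons of a gene, so genes with rarely used long exons appear low on this scale.

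The balance of the 2 genomes differed between the genotypes. Nuclear subunits together took 0.756% ± 0.0225 (SD, n = 3) of all gene counts in WT at day 0, 0.794% ± 0.0628 at day 14 and 0.808% ± 0.0394 at day 28. In ATLD organoids the nuclear share was 1.38% ± 0.195, 1.42% ± 0.177 and 1.29% ± 0.116 (SD, n = 3) at the same days. All 9 ATLD libraries (1.17 to 1.63%) lay above all 9 original WT libraries (0.731 to 0.866%), and the 3 resequenced WT runs stayed in the WT range or just above it (0.751%, 0.833% and 0.884%). The mitochondrially encoded genes took 2.68% ± 0.272, 3.77% ± 0.86 and 2.88% ± 0.575 of the counts in WT and 2.69% ± 0.243, 2.94% ± 0.364 and 2.4% ± 0.238 in ATLD (SD, n = 3 each), with overlapping libraries at all 3 days. The log2 ratio of the mitochondrial to the nuclear share ran from 1.60 to 2.50 in the original WT libraries and from 0.62 to 1.36 in ATLD, without overlap. These shares are sums over genes that were chosen with results known and carry no test.

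**Figure D2:**
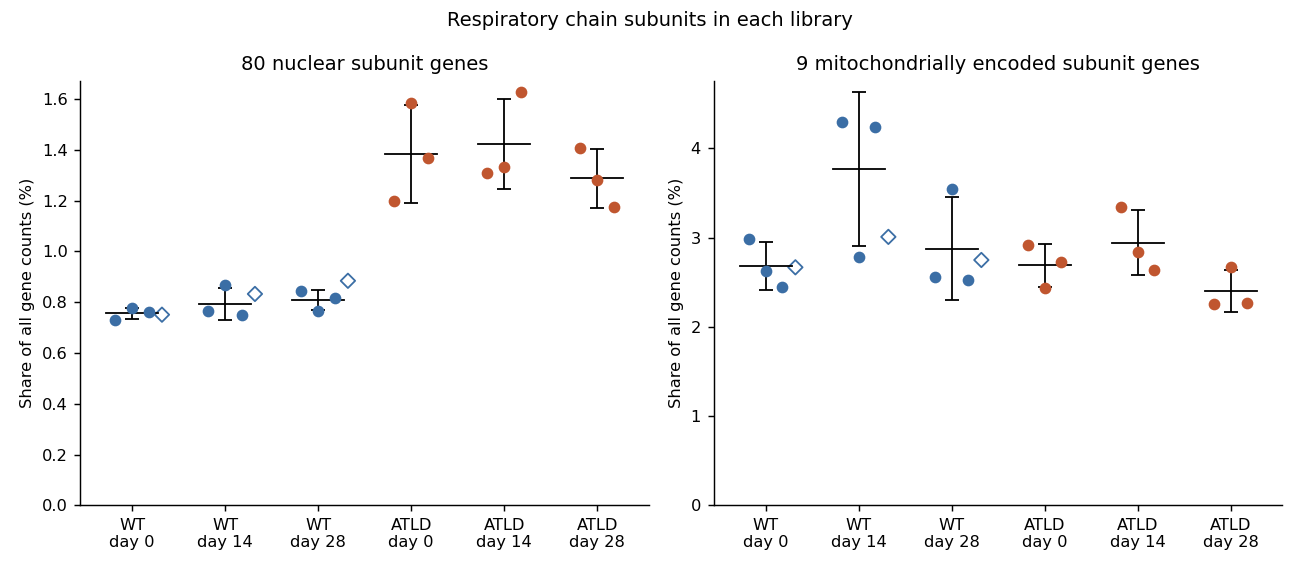
Share of all gene counts (%) taken by the 80 nuclear genes (left) and the 9 mitochondrially encoded genes (right) in each library. Filled points are original libraries, open diamonds resequenced WT runs, and lines and bars the mean and SD of 3 original libraries. The ATLD libraries run from 1.17 to 1.63% on the left, above every WT library, and overlap with WT on the right, where WT day 14 replicates 1 and 3 are highest at 4.3% and 4.24%.

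ATLD organoids held higher levels of most nuclear subunit transcripts than WT organoids before neuT activation and at both later days. At day 0, 71 of the 80 nuclear genes were called higher in ATLD and 1 lower (edgeR adjusted p under 0.05, all 21 libraries with a term for sequencing), and the background over all 18844 tested genes was 26.1% higher and 29.5% lower. At day 14, 74 were called higher and 2 lower, against 30.1% and 35% of all genes tested. At day 28 the counts were 70 and 3, against 29.3% and 34.9%. The resequenced runs entered this fit as libraries of their own, although they are second runs of WT replicate 1 and not independent samples. The p-values and SEs between genotypes may therefore be too small. The median log2 difference of the nuclear genes was 1.13, 1.11 and 0.91 at the 3 days, beside -0.04, -0.07 and -0.05 over all genes tested. In 68 of the 80 the call held at all 3 days, and in 74 every ATLD library exceeded all 12 WT libraries, a separation that 15.3% of all genes tested showed. Of the 8 mitochondrially encoded genes, mt-Nd4 was called at day 0 and none at the later days, when no mt gene reached an unadjusted p under 0.05 either and DESeq2 called none. Their median log2 differences were 0.32, -0.04 and 0.06.

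**Figure D3:**
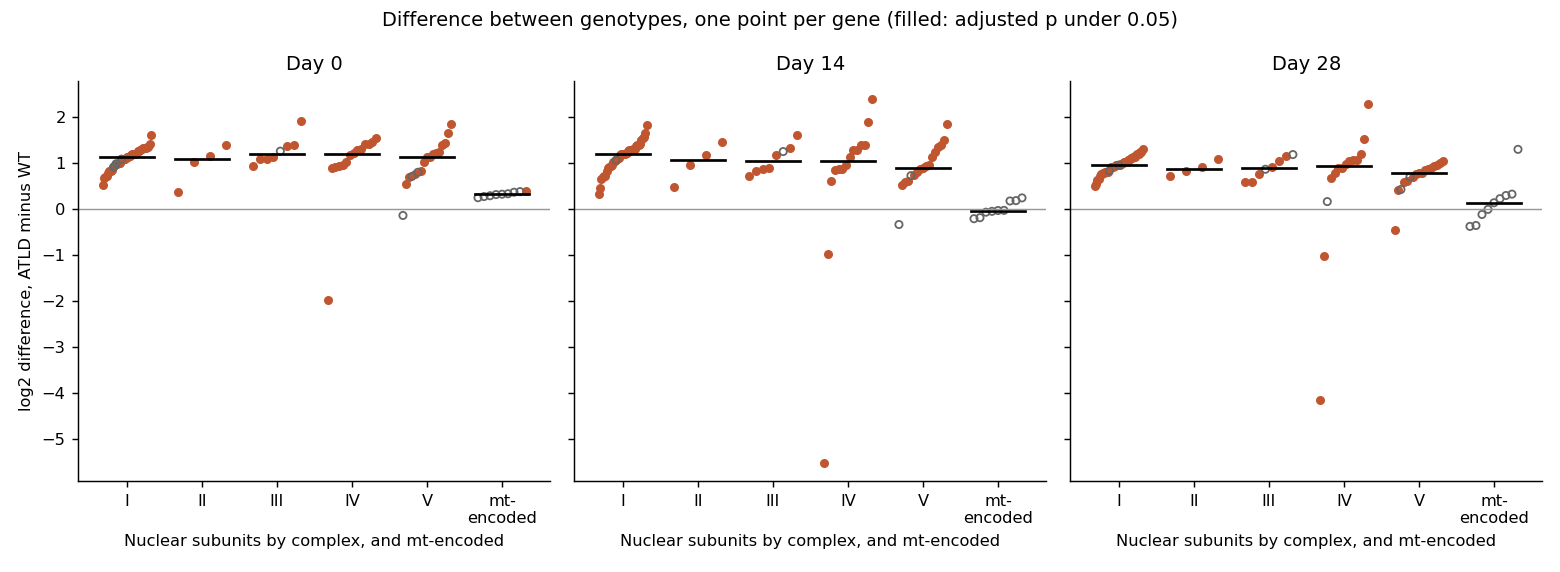
Log2 difference, ATLD minus WT, of each gene at day 0, 14 and 28, with nuclear genes split by complex and the 9 mitochondrially encoded genes (mt-Co3 included) on the right. Filled points were called at adjusted p under 0.05, and horizontal lines are medians. Nuclear medians lie between 0.77 and 1.19 in every complex and day, and the low filled points of complex IV are Cox4i2 and Cox6b2.

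Every complex took part. In complex I, 33, 36 and 35 of 37 nuclear genes were called higher at days 0, 14 and 28 and none lower, with median differences of 1.11, 1.18 and 0.95. Complex III gave 7, 7 and 6 of 8, complex IV 13, 12 and 11 of 14, and complex V 14, 15 and 14 of 17. All 4 genes of complex II, which has no mitochondrially encoded subunit and also works in the citrate cycle, were called at each day. Sdhb, the iron-sulfur subunit, measured 45.2, 53.6 and 52.6 CPM in the 3 WT libraries of day 0 and 127, 199 and 137 CPM in those of ATLD. Its groups did not overlap, with a log2 difference of 1.38 ± 0.21 (SE; edgeR adjusted p = 2.73e-05). Sdha, the flavoprotein, had the smallest difference of the 4 at day 0: 295, 296 and 294 CPM in WT and 336, 357 and 464 CPM in ATLD, a log2 difference of 0.36 ± 0.13 (SE; edgeR adjusted p = 0.0261) that was not called in 4 of 16 alternative settings. The membrane anchors Sdhc and Sdhd stood at 1.01 ± 0.11 (SE; edgeR adjusted p = 1.05e-06) and 1.15 ± 0.12 (SE; edgeR adjusted p = 6.29e-07), and at day 28 the 4 genes ranged from 0.71 (Sdha) to 1.09 (Sdhb). In the genotype comparisons, leaving out a WT replicate 1 removed both its original and its resequenced run. The day 0 call of Sdha was lost when any 1 of WT day 0 replicate 1 and ATLD day 0 replicate 3 was left out (log2 0.21 to 0.34). Its day 14 call was lost when WT day 14 replicate 1 was left out (log2 0.45). Against the resequenced WT runs alone Sdha was called at neither day (0.43 and 0.56).

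Catalytic and other core subunits can be read on their own. Several nuclear core subunits of complex I bind NADH, flavin or iron-sulfur clusters. Ndufv1, which binds NADH, measured 61.8, 77.6 and 79.5 CPM in the WT libraries of day 0 and 131, 158 and 157 CPM in the ATLD ones, a log2 difference of 0.78 ± 0.24 (SE; edgeR adjusted p = 0.0109). For Ndufv2 the difference was 1.20 ± 0.19 (SE; edgeR adjusted p = 4.01e-05), for Ndufs3 0.72 ± 0.13 (SE; edgeR adjusted p = 1.46e-04) and for Ndufs8 1.19 ± 0.32 (SE; edgeR adjusted p = 0.00443). With Ndufs1 at 0.51 and Ndufs7 at 0.98, these core genes ran from 0.51 to 1.20, where all 37 nuclear genes of the complex ran from 0.51 to 1.61 at day 0. In complex III the Rieske iron-sulfur protein Uqcrfs1 measured 79.5, 82.2 and 78.7 CPM in WT and 143, 176 and 161 CPM in ATLD on day 0, with a difference of 1.08 ± 0.11 (SE; edgeR adjusted p = 4.68e-07), and the core proteins Uqcrc1 and Uqcrc2 differed by 0.94 ± 0.23 (SE; edgeR adjusted p = 0.00225) and 1.08 ± 0.14 (SE; edgeR adjusted p = 5.76e-06). Cytochrome c1 (Cyc1) lies outside the name rule. Of the catalytic head of the ATP synthase, Atp5a1 differed by 0.76 ± 0.13 (SE; edgeR adjusted p = 6.67e-05), Atp5b by 0.83 ± 0.12 (SE; edgeR adjusted p = 1.13e-05) and the central stalk subunit Atp5c1 by 1.14 ± 0.14 (SE; edgeR adjusted p = 3.58e-06). Atp5b, the catalytic beta subunit, measured 957, 954 and 963 CPM in WT and 1567, 1778 and 1993 CPM in ATLD, without overlap. Calls were lost for Ndufv1 when WT day 0 replicate 1 was left out (log2 0.59), for Ndufs8 when WT day 0 replicate 1 was left out (log2 0.87) and for Uqcrc1 when WT day 0 replicate 1 was left out (log2 0.79). Ndufs3 was not called with an offset for GC content and length (log2 0.21).

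Among the genes higher in ATLD, the largest differences at day 0 were those of Uqcrq, Atp5e, Atp5mpl and Ndufb6, small accessory subunits of complexes III, V, V and I. Uqcrq measured 18.1, 25.8 and 23.4 CPM in WT, 37.9 in the resequenced WT run and 135, 225 and 89.3 CPM in ATLD. Every ATLD library was above all 4 WT values, though the ATLD values spread widely, and the log2 difference was 1.91 ± 0.56 (SE; edgeR adjusted p = 0.00782). The epsilon subunit of the ATP synthase, Atp5e, measured 45.4, 57.2 and 60.2 CPM in WT and 167, 361 and 168 CPM in ATLD, with ATLD replicate 2 the highest. Its log2 difference was 1.84 ± 0.33 (SE; edgeR adjusted p = 1.31e-04) at day 0, 1.83 ± 0.32 (SE; edgeR adjusted p = 6.95e-05) at day 14 and 0.99 ± 0.32 (SE; edgeR adjusted p = 0.0103) at day 28. Atp5mpl and Ndufb6 differed by 1.64 ± 0.25 (SE; edgeR adjusted p = 2.74e-05) and 1.61 ± 0.28 (SE; edgeR adjusted p = 1.22e-04) at day 0. Ndufb6 shares 39.0% of its exonic bases with Smim27 on the opposite strand, and the strand setting of the counting is not given in the sources used here, so its level is uncertain. At day 14 the leading genes were the complex IV subunits Cox7a1, Cox7a2 and Ndufa4, the last of which carries a complex I name, together with Atp5e. Ndufa4 measured 142, 125 and 139.9 CPM in the WT libraries of day 14 and 447, 388 and 636 CPM in the ATLD ones, without overlap, a log2 difference of 1.81 ± 0.21 (SE; edgeR adjusted p = 6.87e-07). At day 28 Cox7a1 and Cox7a2 were followed by the complex I accessory subunits Ndufs5 at 1.30 ± 0.13 (SE; edgeR adjusted p = 7.28e-08) and Ndufa6 at 1.24 ± 0.16 (SE; edgeR adjusted p = 2.36e-06). Ndufs5 lay between 8.67 and 11.2 CPM in every original WT library and between 19.4 and 27.9 CPM in every ATLD library. The call of Uqcrq was lost when WT day 0 replicate 1 was left out (log2 1.72).

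Some genes missed the call, differed little or ran the other way. Ndufs7, Uqcr11 and Atp5d were called at no day, although every ATLD library exceeded every WT library for each of them. Their log2 differences at day 0 were 0.98, 1.25 and 0.79, beside a median of 1.13 over the nuclear genes. Atp5l, a membrane subunit of the ATP synthase with a deposited length of 6443 bases, ran the other way: at day 28 it measured 17.2, 19.1 and 17.8 CPM in WT and 11.6, 10.2 and 10.8 CPM in ATLD. That difference, -0.46 ± 0.19 (SE; edgeR adjusted p = 0.0443), was not called in 11 of 16 alternatives. The iron-sulfur subunit Ndufs1, core to complex I, was called with small differences of 0.51 ± 0.13 (SE; edgeR adjusted p = 0.00331) at day 0, 0.33 ± 0.13 (SE; edgeR adjusted p = 0.0385) at day 14 and 0.49 ± 0.13 (SE; edgeR adjusted p = 0.00347) at day 28, and its libraries overlapped at the later days. The call of mt-Nd4 at day 0 (0.40 ± 0.17 SE, edgeR adjusted p = 0.0493) was lost in 10 of 16 alternatives and changed sign in 1 of them. Atp5l was not called when any 1 of WT day 28 replicates 1, 2 and 3 and ATLD day 28 replicates 1, 2 and 3 was left out (log2 -0.51 to -0.42). With the GC and length offset it stood at -0.11, without a filter at -0.41, against the resequenced runs alone at -0.43 and without the 3 libraries that stand apart at -0.45. Ndufs1 at day 14 was not called when any 1 of WT day 14 replicates 1 and 2 and ATLD day 14 replicates 1 and 2 was left out (log2 0.26 to 0.34), nor with the GC and length offset (log2 0.16) or without a term for sequencing (log2 0.07). Without that term it was not called at day 28 either (log2 0.28), and at day 0 not against the resequenced runs alone (log2 0.49). For mt-Nd4 the call was lost when any 1 of WT day 0 replicates 1, 2 and 3 and ATLD day 0 replicates 1, 2 and 3 was left out (log2 0.32 to 0.56), and it stood at -0.30 with the GC and length offset, 0.39 with DESeq2 or its size factors and 0.35 against the resequenced runs alone.

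Short transcripts as a class were higher in ATLD, and the longest transcript of the nuclear subunits had a median length of 1025.5 bases. Among other protein-coding genes with a mean log2 CPM over 3, those with a longest transcript of at most 1000 bases had a median log2 difference of 1.04 at day 0, 1.10 at day 14 and 0.85 at day 28 (289 genes). The 35 nuclear subunits of that length had 1.18, 1.22 and 0.96. Called higher in ATLD at day 0 were 31 of the 35 subunits and 81% of the 289 others. In longer classes the values lay further apart, without a test of the difference: between 1500 and 2500 bases the subunits had a median of 1.11 (16 genes) and the others 0.45 at day 0, and above 4000 bases the values were 0.81 (4 genes) and -0.22. In the mitochondrially encoded genes, 348 to 1824 bases long, medians in the same classes ran from 0.24 to 0.38 at day 0 over 1 to 3 genes a class. Per library, short minus long other genes ranged from -0.99 to -0.46 in the original WT libraries, from -0.65 to -0.32 in the resequenced runs and from 0.31 to 1.24 in ATLD. With an offset for GC content and length the median difference of nuclear genes was 0.60, 0.56 and 0.47. The median of the mitochondrially encoded genes, mt-Co3 included, turned to -0.49, -0.71 and -0.54 there. Beyond these values, the part of transcript length in the genotype difference was not tested.

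**Figure D4:**
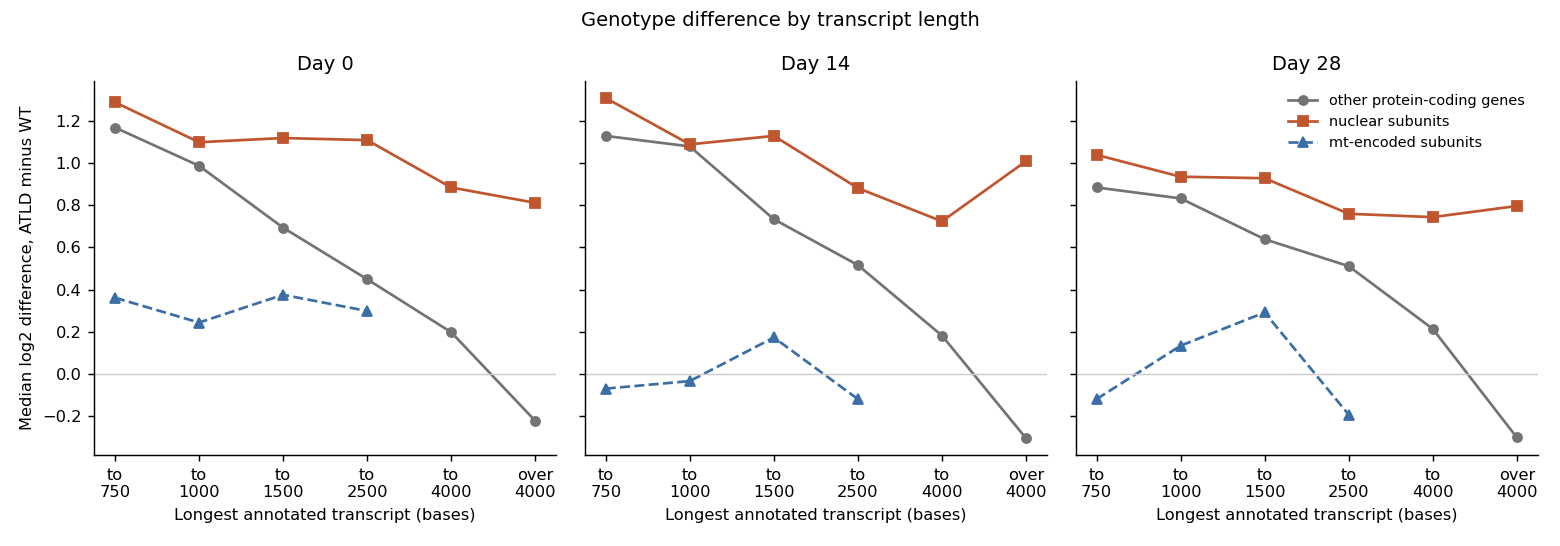
Median log2 difference, ATLD minus WT, by length of the longest annotated transcript at each day, for nuclear subunits, mitochondrially encoded subunits and other protein-coding genes with a mean log2 CPM over 3. Other genes fall from 1.17 to -0.22 at day 0 with length, and nuclear subunits stay at 0.81 or above on that day. The mitochondrial points hold 1 to 3 genes each and the last nuclear point holds 4.

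Markers of cell types were read beside the genotype difference. The 5 luminal markers summed to 1108 to 2620.3 CPM in original WT libraries and to 3824 to 5408 CPM in ATLD, without overlap. The 5 basal markers summed to 2073 to 9539 and 1981 to 3916 CPM, with overlap. No marker of either list was at 0. Of the other cell types, 5 fibroblast markers summed to 13 to 44.3 CPM in original WT libraries and 8.76 to 29.4 CPM in ATLD, mostly through Pdgfra (35.7, 10.4 and 18 CPM at days 0, 14 and 28 in WT and 10.2, 16 and 17.4 in ATLD). The 5 macrophage and leukocyte markers summed to 6.61 to 11.7 CPM in original WT libraries, 2.26 to 3.03 in the resequenced runs and 2.22 to 3.34 in ATLD, with Ptprc at 0 in the last 2 of these. The 4 endothelial markers reached at most 2.55 CPM in any library. Their part in the subunit levels was not tested, and in bulk RNA fewer cells of a type and less RNA per cell cannot be told apart. The macrophage and leukocyte sums also differed between original and resequenced runs of the same WT samples. All original WT libraries were sequenced apart from the ATLD libraries, so the first sequencing holds no genotype comparison. Against the 3 resequenced WT runs alone, 1 library a day, the median difference of nuclear genes was 1.22, 1.15 and 0.89, beside 1.13, 1.11 and 0.91 with all libraries. The labels do not say whether the resequenced runs used the same library preparation as the ATLD samples.

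Nuclear subunit genes are known targets of the transcription factors NRF1, GABP (an ETS factor also named NRF2 in older work) and YY1. RefSeq promoters of build GRCm38.p6, each 300 bases from 250 before to 50 after a start, were found for 67 of the 80 nuclear genes (72 promoters). Letters matching GCGCANGCG (NRF1), on either strand, occurred in 21 of these 72 (29.2%) and in 6.25% of all 32851 promoters of the table. CCGGAAG (ETS) occurred in 16 (22.2%, against 8.86%) and AAGATGGCG (YY1) in 7 (9.72%, against 1.4%). At least 1 of the 3 occurred in 36 of 72 (50%, against 14.8%), and both NRF1 and ETS letters in 6. Promoters of the members were also richer in GC (median 58.0% against 52.7%), and a match of letters is no evidence of binding. Stretches before the start are shown for genes that were higher in ATLD with matches (Cox6a1, Sdhd, Atp5e and Uqcrh) and for 2 isoforms with a course of their own and no match in their promoters (Cox7a1 and Cox6b2). Matches are in capitals.
Cox6a1 (chr5:115348959-115349132, minus strand): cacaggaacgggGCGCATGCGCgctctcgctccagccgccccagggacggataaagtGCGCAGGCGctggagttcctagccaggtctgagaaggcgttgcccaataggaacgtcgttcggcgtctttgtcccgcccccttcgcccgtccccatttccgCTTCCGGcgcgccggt
Sdhd (chr9:50603877-50603940, minus strand): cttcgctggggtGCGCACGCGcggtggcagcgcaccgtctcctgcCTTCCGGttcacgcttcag
Atp5e (chr2:174464185-174464244, minus strand): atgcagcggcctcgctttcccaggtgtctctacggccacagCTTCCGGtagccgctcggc
Uqcrh (chr4:116075071-116075130, minus strand): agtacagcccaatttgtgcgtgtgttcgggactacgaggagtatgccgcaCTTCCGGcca
Cox7a1 (chr7:30184111-30184170, plus strand): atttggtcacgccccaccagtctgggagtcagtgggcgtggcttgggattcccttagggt
Cox6b2 (chr7:4753095-4753154, minus strand): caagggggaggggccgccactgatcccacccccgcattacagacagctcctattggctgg

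The Cox6a1 stretch holds NRF1 letters in 2 places and ETS letters, and Sdhd holds 1 of each, while Atp5e and Uqcrh hold ETS letters alone. Their ATLD differences at day 0 were 0.93, 1.15, 1.84 and 1.36 on the log2 scale. Cox7a1, without a match in its 300 bases, differed by 1.30. Uqcrh, which holds a match, also had a course of its own at day 28. Cox7a2 and Ndufa4, higher in ATLD, held no match. Whether matches go with levels or courses was not tested.

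Several subunits of complex IV are encoded by alternative genes, and the minor isoforms followed courses of their own. Cox4i1, the common form of the regulatory subunit IV, measured 160.1, 205 and 204 CPM in the WT libraries of day 0 and 494, 812 and 493 CPM in the ATLD ones. Its partner Cox4i2, known for its induction by low oxygen and its expression in lung, measured 0.876, 0.735 and 0.868 CPM in WT at day 0, 3.26, 5.3 and 3.54 at day 14 and 6.59, 3.89 and 5.72 at day 28. Every later WT library was above every day 0 library. The resequenced runs, which are second runs of WT replicate 1 and no further samples, measured 1.19, 7.61 and 7.72 CPM at days 0, 14 and 28. In ATLD the same gene measured 0.344, 0.271 and 0.352 CPM at day 0, 0.222, 0.158 and 0.048 at day 14 and 0.387, 0.616 and 0.4 at day 28, or 2 to 29 counts a library, below every WT library of any day. Cox4i2 rose in WT by 2.27 ± 0.27 (SE; edgeR adjusted p = 4.43e-06) at day 14 and by 2.70 ± 0.27 (SE; edgeR adjusted p = 7.10e-07) at day 28. In ATLD it did not pass the test against day 0 at either later day (-1.15 and 0.54), though day 28 lay above day 14 by 1.68 ± 0.42 (SE; edgeR adjusted p = 0.0102). The genotype difference went from -1.98 ± 0.33 (SE; edgeR adjusted p = 7.69e-05) at day 0 to -5.51 ± 0.35 (SE; edgeR adjusted p = 1.11e-10) at day 14 and -4.15 ± 0.30 (SE; edgeR adjusted p = 7.94e-10) at day 28. The change over time itself differed between genotypes by -3.42 ± 0.52 (SE; edgeR adjusted p = 8.20e-05) at day 14 and -2.16 ± 0.46 (SE; edgeR adjusted p = 0.00166) at day 28, called under all 22 alternatives at each day. Because Cox4i2 is known from lung, lung epithelium markers were read beside it: the 5 summed to 8.05 to 16.6 CPM in WT at day 0, 8.59 to 9.71 at day 14 and 9.73 to 16.8 at day 28. They summed to 1.98 to 2.59 CPM in the resequenced WT runs, where Cox4i2 was as high or higher, and to 0.409 to 0.887 CPM in ATLD, with Sftpa1 at 0. Their part in the Cox4i2 level was not tested. The step from day 14 to 28 in ATLD was not called when ATLD day 28 replicate 2 was left out (log2 1.43). Cox4i1 was called higher in ATLD at each day, but at day 28 not when any 1 of WT day 28 replicate 1 and ATLD day 28 replicate 1 was left out (log2 0.72 to 0.94) or against the resequenced runs alone (log2 0.79).

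Cox6b2, the testis-type partner of Cox6b1, also rose in WT. It measured 0.772, 0.971 and 0.868 CPM at day 0, 3.28, 4.69 and 2.95 at day 14 and 4.6, 2.41 and 4.07 at day 28 in WT, without overlap of later days with day 0. In ATLD it measured 2.02, 1.96 and 2.11 CPM at day 0, 1.75, 2.43 and 2.86 at day 14 and 2.94, 2.25 and 1.79 at day 28, with overlap. The rise in WT was 2.07 ± 0.27 (SE; edgeR adjusted p = 1.25e-05) at day 14 and 2.10 ± 0.27 (SE; edgeR adjusted p = 1.31e-05) at day 28, and in ATLD the values against day 0 were 0.21 and 0.20, neither called. ATLD was above WT at day 0 (0.88 ± 0.28 SE, edgeR adjusted p = 0.0117) and below it at day 14 (-0.98 ± 0.26 SE, edgeR adjusted p = 0.00264) and day 28 (-1.01 ± 0.26 SE, edgeR adjusted p = 0.00211, where the libraries overlapped). The 4 testis markers summed to at most 0.182 CPM in any original library, with Tnp1 at 0 in all. Cox6b1, the common form, measured 134 ± 5.31 CPM (SD, n = 3) in WT at day 0, against 348 ± 74.6 CPM in ATLD, and was called over time in neither genotype. The genotype calls of Cox6b2 were lost at day 0 when WT day 0 replicate 1 was left out (log2 0.80) or with an offset for GC content and length (log2 0.29), and at day 28 when WT day 28 replicate 1 was left out (log2 -0.85).

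Cox7a1, the isoform typical of heart and skeletal muscle, took the opposite course. In ATLD it measured 4.32, 6.74 and 5.61 CPM at day 0, 7.81, 7.72 and 9.51 at day 14 and 10.5, 8.55 and 9.45 at day 28, and every later library exceeded every day 0 library. In WT it measured 1.48, 2.18 and 2.84 CPM at day 0, 1.23, 1.67 and 1.41 at day 14 and 2.04, 1.12 and 2.01 at day 28, with overlapping groups. The ATLD rise was called at day 28 (0.77 ± 0.23 SE, edgeR adjusted p = 0.0158) and missed the threshold at day 14 (0.59, adjusted p = 0.119 by edgeR). The genotype difference was 1.30 ± 0.27 (SE; edgeR adjusted p = 4.80e-04) at day 0, 2.38 ± 0.27 (SE; edgeR adjusted p = 3.75e-07) at day 14 and 2.27 ± 0.26 (SE; edgeR adjusted p = 5.98e-07) at day 28. The change over time differed between genotypes by 1.18 ± 0.34 (SE; edgeR adjusted p = 0.0186) at day 14 and by 1.09 ± 0.34 (SE; edgeR adjusted p = 0.0231) at day 28, lost in 3 of 22 and 4 of 22 alternatives. The 8 muscle markers summed to 16.9 to 53.6 CPM in original WT libraries and to 23.5 to 43.5 CPM in ATLD, mostly through Tnnt2 and Mb. Of these, Ckm, Ckmt2 and Myh6 stayed under 0.1 CPM in the mean of every group, and Mb averaged 19.2, 21.6 and 13.3 CPM in ATLD at days 0, 14 and 28 against 5.33, 4.26 and 4.15 CPM in WT. Tnnt2 went the other way, with 4.59, 13.4 and 13.1 CPM in ATLD and 11.3, 37.2 and 45 CPM in WT. The part of muscle-type cells in the Cox7a1 level was not tested. The ATLD rise at day 28 was not called when any 1 of ATLD day 0 replicate 1 and ATLD day 28 replicate 1 was left out (log2 0.62 to 0.70). The difference in course was lost at day 14 when any 1 of WT day 0 replicate 3 and WT day 14 replicate 1 and ATLD day 0 replicate 1 was left out (log2 0.91 to 1.07) and at day 28 when any 1 of WT day 0 replicate 3 and WT day 28 replicate 2 and ATLD day 0 replicate 1 and ATLD day 28 replicate 1 was left out (log2 0.83 to 1.01).

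The common isoform Cox7a2 measured 56.1, 54.7 and 55.2 CPM in the WT libraries of day 14 and 183, 172 and 254 CPM in the ATLD ones, a log2 difference of 1.89 ± 0.18 (SE; edgeR adjusted p = 3.04e-08), and 1.52 ± 0.17 (SE; edgeR adjusted p = 5.13e-07) at day 28. Cox7a2l, which helps complexes III and IV join into supercomplexes, measured 70.0, 85.7 and 83.8 CPM in WT at day 0 and 128, 95.9 and 124 at day 28. In ATLD the gene measured 145, 203 and 158 CPM at day 0 and 157, 146 and 139.7 at day 28. The WT libraries of days 0 and 28 did not overlap and the ATLD libraries did. Its genotype difference was 0.94 ± 0.17 (SE; edgeR adjusted p = 1.33e-04) at day 0 and 0.61 ± 0.16 (SE; edgeR adjusted p = 0.00338) at day 14, but 0.16 and not called at day 28. Cox6a1 and Cox8a, whose muscle partners Cox6a2 and Cox8b failed the count filter, were called higher in ATLD at each day, with 0.93, 0.85 and 1.19 for Cox6a1 and 0.91, 0.86 and 0.89 for Cox8a. Among the 3 genes of the c-ring of the ATP synthase, which code for the same mature protein, Atp5g3 was highest per length in every group (66.7 CPM per kb in WT at day 0, against 16.5 for Atp5g2 and 12.5 for Atp5g1). Atp5g3 and Atp5g1 were called higher in ATLD at each day, at 1.21 and 0.70 at day 0, and Atp5g2 at day 14 alone (0.79 ± 0.30 SE, edgeR adjusted p = 0.0276). That Atp5g2 behaved differently at the other days was not tested. Cox6a1 lost its call at day 0 when WT day 0 replicate 1 was left out (log2 0.80) and at day 14 when WT day 14 replicate 1 was left out (log2 0.75). Atp5g1 lost its day 0 call when any 1 of WT day 0 replicate 1 and ATLD day 0 replicate 2 was left out (log2 0.58 to 0.60), and Atp5g2 its day 14 call when any 1 of WT day 14 replicate 1 and ATLD day 14 replicates 2 and 3 was left out (log2 0.73 to 0.78). With the GC and length offset the day 14 calls of Cox7a2l, Cox8a and Atp5g3 were lost, at 0.02, 0.34 and 0.06 on the log2 scale.

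**Figure D5:**
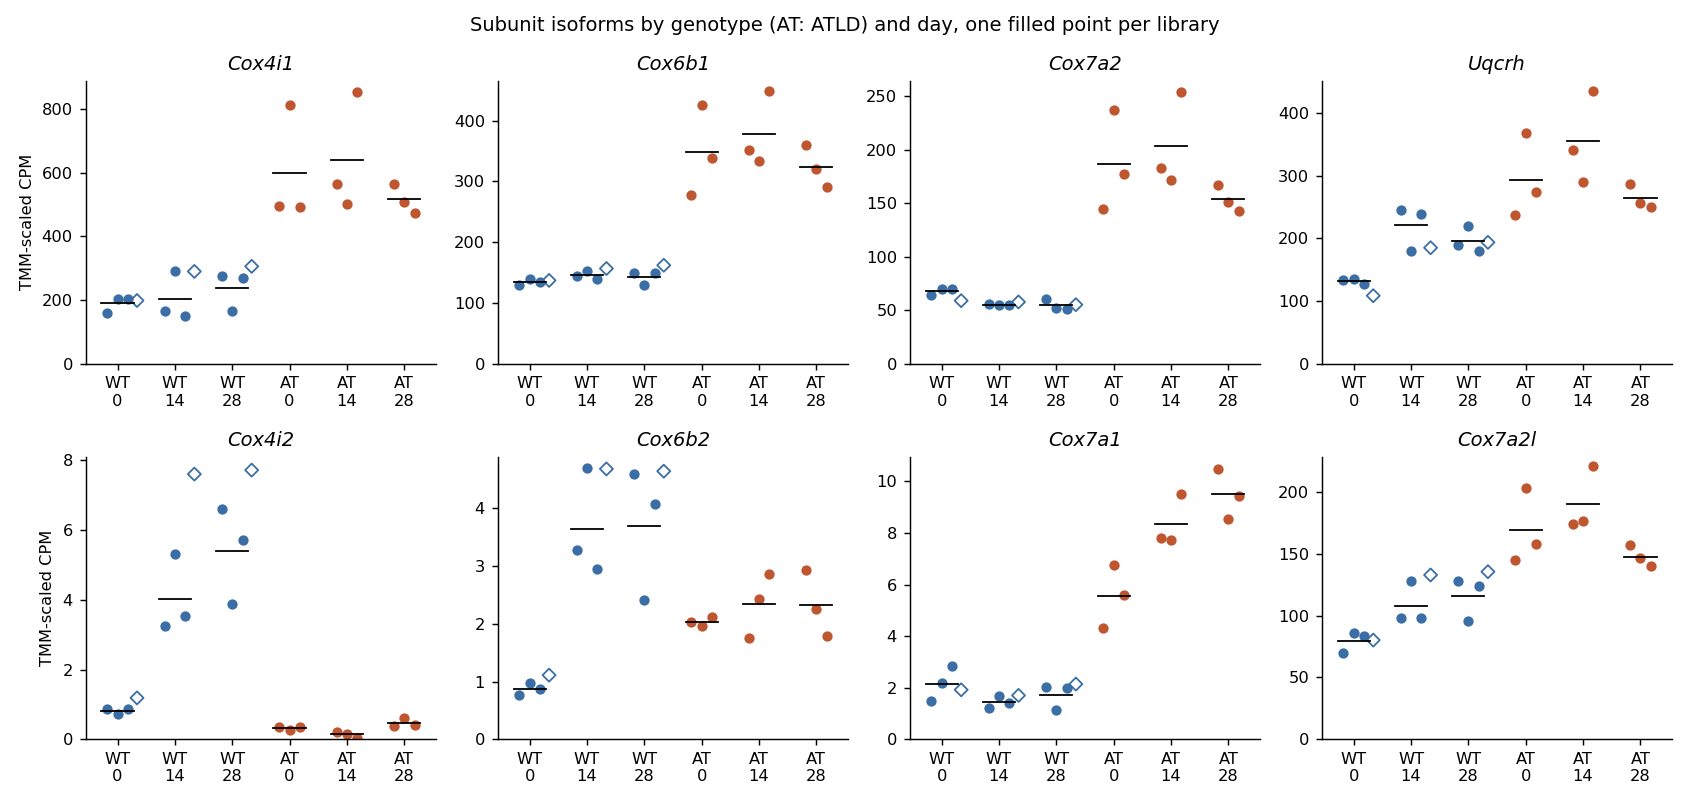
TMM-scaled CPM of 8 subunit genes in each library by genotype and day (linear axes from 0, scaled per gene). Filled points are original libraries, open diamonds resequenced WT runs and lines the means of 3 original libraries. Cox4i2 and Cox6b2 rise in the original WT libraries from below 1 CPM, Cox7a1 is highest in ATLD at day 28 with 8.55 to 10.5 CPM, and Cox4i1, Cox6b1 and Cox7a2 are higher in all ATLD than in all WT libraries.

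During neuT activation in WT organoids most nuclear subunits did not change by the test. At day 14, 7 of 80 were called higher than at day 0 and 0 lower, and the background over all 18684 tested genes was 15.2% higher and 15.1% lower. The 7 were Cox4i2, Cox6b2, Uqcrh, Atp5g3, Ndufc1, Cox7a2l and Cox5a, with a median log2 change of all 80 of 0.10. Uqcrh, the hinge protein of complex III, measured 134, 135 and 128 CPM at day 0 and 245, 179.6 and 239 at day 14, a change of 0.74 ± 0.17 (SE; edgeR adjusted p = 0.00264). Replicates 1 and 3 of day 14 were the highest. Cox7a2l changed by 0.44 ± 0.15 (SE; edgeR adjusted p = 0.0389) and Atp5g3 by 0.47 ± 0.15 (SE; edgeR adjusted p = 0.027). Without WT day 14 replicate 2, 33 of the 89 genes were called (19 higher and 14 lower). That setting left day 14 with replicates 1 and 3, which stand apart by low counts of GC-rich genes. Their GC values were -1.04 and -1.01, against 0.28 in replicate 2. The share of all genes called in that fit is not given here. Leaving out day 0 replicate 3 gave 7 and leaving out day 14 replicate 1 gave 8. Atp5g3 was not called when any 1 of WT day 0 replicates 1, 2 and 3 and WT day 14 replicate 1 was left out (log2 0.48 to 0.50), and Cox7a2l not when any 1 of WT day 0 replicates 1 and 3 and WT day 14 replicate 2 was left out (log2 0.30 to 0.49). Without the 3 libraries that stand apart Uqcrh and Atp5g3 were not called, at 0.41 and 0.42. Atp5g3 was not called with resequenced runs in place of the originals (0.41), nor Cox7a2l with the compared groups alone (0.40).

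Mitochondrially encoded genes were called higher in WT at day 14 in 6 of 8 cases, the exceptions being mt-Nd1 and mt-Nd3, with a median log2 change of 0.56 over the 8. The largest was that of mt-Nd2, a membrane subunit of complex I, which measured 2325, 2124 and 1935 CPM at day 0 and 4285, 2897 and 4185 at day 14. Its groups did not overlap, and the change was 0.83 ± 0.16 (SE; edgeR adjusted p = 4.72e-04). The proton-pumping subunit mt-Nd5 measured 2842, 2432 and 2223 CPM at day 0 and 4435, 3055 and 4459 at day 14, a change of 0.67 ± 0.18 (SE; edgeR adjusted p = 0.00868). For mt-Nd6 and mt-Nd4 the changes were 0.65 ± 0.16 (SE; edgeR adjusted p = 0.00418) and 0.57 ± 0.15 (SE; edgeR adjusted p = 0.00949), and for mt-Co1 and mt-Cytb, whose groups overlapped, 0.53 ± 0.17 (SE; edgeR adjusted p = 0.0266) and 0.47 ± 0.16 (SE; edgeR adjusted p = 0.0358). In each of these genes replicates 1 and 3 of day 14 were high and replicate 2 was the lowest of its group. Replicates 1 and 3 are also libraries with few counts of GC-rich genes, and the mt genes are AT-rich (33.0 to 39.9% GC, against a median of 50.2% in the nuclear subunits). The resequenced run of day 14 replicate 1, whose GC value was 0.43, had an mt share of 3.01%, where the original run of that replicate had 4.3%. Without the 3 libraries that stand apart, the median change of the 9 mt genes was 0.22 and 2 of them were called, with 20 nuclear genes called higher. This setting, chosen after the data were seen, compares day 0 with replicate 2 and the resequenced run of replicate 1 at day 14. The fit had no term for sequencing. With a GC offset the median was 0.42, and with resequenced runs in place of the originals 0.43. Calls were lost for mt-Co1 when any 1 of WT day 0 replicates 2 and 3 and WT day 14 replicates 1 and 3 was left out (log2 0.41 to 0.51), for mt-Cytb when any 1 of WT day 0 replicates 2 and 3 and WT day 14 replicates 1 and 3 was left out (log2 0.37 to 0.48) and for mt-Nd4 when WT day 14 replicate 1 was left out (log2 0.47). Without the 3 libraries mt-Nd5, mt-Nd4, mt-Co1 and mt-Cytb were not called, at 0.37, 0.22, 0.09 and 0.10. With an offset for GC content and length the median of the 9 was 0.33 and 2 were called. There mt-Nd6, mt-Nd4, mt-Co1 and mt-Cytb lost their calls, at 0.40, 0.33, 0.24 and 0.18. Both mt-Co1 and mt-Cytb also lost theirs with the resequenced runs (0.40 and 0.34), and these 2 and mt-Nd4 with the compared groups alone (0.48, 0.42 and 0.52).

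At day 28 of WT activation, 4 nuclear genes were called higher than at day 0 and none lower, against 12.3% and 12.4% of all genes tested. These were Cox4i2, Cox6b2, Uqcrh (0.57 ± 0.17 SE, edgeR adjusted p = 0.019) and Cox7a2l (0.54 ± 0.15 SE, edgeR adjusted p = 0.0148). No mitochondrially encoded gene was called by edgeR or by DESeq2, and none had an unadjusted p under 0.05. Between days 14 and 28 no subunit was called, where 0.53% of all genes tested were called higher and 0.375% lower. No nuclear gene and all 8 mitochondrially encoded genes had an unadjusted p under 0.05 in that comparison, all 8 with lower values at day 28 (median -0.44), and DESeq2 called 1 of the 9 with mt-Co3 included. The share of all genes at that unadjusted p is not given here. With the GC and length offset the median of the 9 went from -0.445 to -0.21. WT day 14 replicates 1 and 3 are libraries that stand apart by low counts of GC-rich genes. Leaving out WT day 14 replicate 2, which left replicates 1 and 3 alone at that day, gave 23 calls, 14 higher and 9 lower. Leaving out day 28 replicate 2 gave 2. Uqcrh at day 28 was not called when any 1 of WT day 0 replicate 3 and WT day 28 replicate 2 was left out (log2 0.48 to 0.54) or without the 3 libraries that stand apart (log2 0.45), and Cox7a2l not when any 1 of WT day 0 replicate 1 and WT day 28 replicates 1 and 3 was left out (log2 0.45 to 0.49).

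In ATLD organoids at day 14 no subunit was called against day 0 by edgeR or by DESeq2, where the background was 5.18% higher and 6.49% lower calls. An unadjusted p under 0.05 was reached by 3 of the 89. At day 28 Cox7a1 was called higher and mt-Nd1 and mt-Nd3 lower than at day 0, against 14.1% and 15.7% of all genes tested. The membrane subunit mt-Nd1 measured 4039, 3599 and 3929.9 CPM at day 0 and 2849, 3150.3 and 2649 at day 28, without overlap. Its fall, -0.42 ± 0.15 (SE; edgeR adjusted p = 0.0476), was not called in 9 of 15 alternatives. The low-count gene mt-Nd3 fell from 6.84, 5.41 and 5.5 CPM at day 0 to 3.0, 3.5 and 4.0 at day 28, a change of -0.76 ± 0.22 (SE; edgeR adjusted p = 0.0154). Leaving out ATLD day 28 replicate 1 left 0 calls, and leaving out day 0 replicate 1 gave 7, all lower and all nuclear. The fall of mt-Nd1 was not called when any 1 of ATLD day 0 replicates 1, 2 and 3 and ATLD day 28 replicates 1, 2 and 3 was left out (log2 -0.49 to -0.36), and that of mt-Nd3 not when any 1 of ATLD day 0 replicate 1 and ATLD day 28 replicate 1 was left out (log2 -0.66 to -0.64). With the GC and length offset neither was called (-0.32 and -0.43), and mt-Nd1 was not with median-of-ratios size factors (-0.43).

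From day 14 to day 28 in ATLD, Cox4i2 was called higher and 4 genes lower (mt-Nd3, mt-Nd5, Ndufa4 and Sdhd), against 8.25% and 9.05% of all genes tested. Ndufa4 measured 447, 388 and 636 CPM at day 14 and 357, 327 and 293 at day 28, a change of -0.59 ± 0.19 (SE; edgeR adjusted p = 0.0439), with day 14 replicate 3 the highest. Sdhd measured 228, 208 and 264 CPM at day 14 and 194, 182 and 162 at day 28, a change of -0.38 ± 0.11 (SE; edgeR adjusted p = 0.0311). For mt-Nd5 the values were 3986, 3282 and 2987 CPM at day 14 and 1881, 2551 and 2404 at day 28, without overlap, a change of -0.58 ± 0.18 (SE; edgeR adjusted p = 0.0341). The change of mt-Nd3 was -0.67 ± 0.22 (SE; edgeR adjusted p = 0.0451). These falls were not called in 8 of 15, 6 of 15, 5 of 15 and 8 of 15 alternatives in that order. Leaving out ATLD day 14 replicate 1, day 28 replicate 2 or day 28 replicate 3 left 1 call each, and leaving out day 14 replicate 3 or day 28 replicate 1 left 2. The call of Ndufa4 was lost when any 1 of ATLD day 14 replicates 1 and 3 and ATLD day 28 replicates 1, 2 and 3 was left out (log2 -0.66 to -0.36). That of Sdhd was lost when any 1 of ATLD day 14 replicates 1 and 3 and ATLD day 28 replicates 2 and 3 was left out (log2 -0.39 to -0.28). For mt-Nd5 it was lost when any 1 of ATLD day 14 replicates 1 and 2 and ATLD day 28 replicates 1 and 3 was left out (log2 -0.63 to -0.46), and for mt-Nd3 when any 1 of ATLD day 14 replicates 1, 2 and 3 and ATLD day 28 replicates 1, 2 and 3 was left out (log2 -0.78 to -0.53). With the GC and length offset Ndufa4 (-0.40) and mt-Nd3 (-0.16) were not called, nor Ndufa4 with the GC offset alone (-0.43) or Sdhd without a filter (-0.38).

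The course over time differed between genotypes in few subunits. At day 14 Cox7a1 was called with a higher change in ATLD and Cox4i2 and Cox6b2 with a lower one, while 10.8% of all genes tested were called higher and 10.6% lower. At day 28 the same 3 genes were joined by Uqcrh (-0.71 ± 0.24 SE, edgeR adjusted p = 0.0328) and Cox7a2l (-0.73 ± 0.22 SE, edgeR adjusted p = 0.0173), against 13.5% and 14%. Uqcrh measured 237, 369 and 274 CPM at day 0 and 286, 257 and 250 at day 28 in ATLD, with overlap. In WT it measured 134, 135 and 128 CPM at day 0 and 189, 219.8 and 179.8 at day 28, without overlap. Its call was lost in 7 of 22 alternatives and that of Cox7a2l in 1 of 22. No mt gene was called at either day by edgeR, with 3 of 8 at an unadjusted p under 0.05 each time, and DESeq2 called 0 of the 9 with mt-Co3 at day 14 and 1 at day 28. At day 14 the count of 3 became 15 without WT day 14 replicate 2 and 6 without ATLD day 0 replicate 2. The first of these settings left WT day 14 with replicates 1 and 3, libraries that stand apart by low counts of GC-rich genes. At day 28 the count of 5 became 3 without WT day 0 replicate 3, WT day 28 replicate 2 or ATLD day 0 replicate 2. Uqcrh was not called when any 1 of WT day 0 replicates 2 and 3 and WT day 28 replicate 2 and ATLD day 0 replicate 2 and ATLD day 28 replicates 2 and 3 was left out (log2 -0.73 to -0.52), and Cox7a2l not when ATLD day 0 replicate 2 was left out (log2 -0.58).

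Genes around the chain were read from 5 lists. Of 47 tested assembly factors, which build the complexes without staying in them, 35, 37 and 37 were called higher in ATLD at days 0, 14 and 28 and 0, 0 and 1 lower, with medians of 0.66, 0.73 and 0.67. Over all genes tested 26.1%, 30.1% and 29.3% were called higher at these days and 29.5%, 35% and 34.9% lower, which is also the background for the lists that follow. That share depended on transcript length. Of other protein-coding genes with a mean log2 CPM over 3, 81% were called higher at day 0 up to 1000 bases. Between 1500 and 2500 bases the share was 54.9%, and above 4000 bases 15.5%. The part of length in the counts of these lists was not tested. The assembly factors with the largest differences at day 0 were Cox16, Pet100 and Coa4, at 1.66 ± 0.48 (SE; edgeR adjusted p = 0.00666), 1.59 ± 0.21 (SE; edgeR adjusted p = 5.60e-06) and 1.39 ± 0.22 (SE; edgeR adjusted p = 3.49e-05). Of 17 genes of the citrate cycle and pyruvate dehydrogenase, which supply the electrons, 16, 13 and 14 were called higher and none lower. Mitochondrial isocitrate dehydrogenase (Idh2) went from 97.3 ± 8.87 to 295 ± 19.9 CPM between WT and ATLD at day 0, 1.35 ± 0.20 (SE; edgeR adjusted p = 2.62e-05). Among 14 tested carriers and partners 12, 10 and 11 were called higher and 1, 0 and 1 lower. Cytochrome c itself (Cycs) went from 33.2 ± 0.182 to 77.3 ± 11.7 CPM, 1.36 ± 0.14 (SE; edgeR adjusted p = 3.82e-07), at day 0. The sulfide oxidoreductase Sqor, which passes electrons to quinone, differed by 1.73 ± 0.13 (SE; edgeR adjusted p = 1.94e-09) at day 28. In ATLD it rose by 1.61 ± 0.12 (SE; edgeR adjusted p = 6.62e-08) from day 0 to day 28, and in WT it fell by 0.54 ± 0.12 (SE; edgeR adjusted p = 0.00321).

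The list of genes for expression of mitochondrial DNA and for biogenesis held calls in both directions. Of 30 genes, 10, 6 and 8 were called higher in ATLD at days 0, 14 and 28 and 3, 7 and 7 lower, against 26.1%, 30.1% and 29.3% and 29.5%, 35% and 34.9% of all genes tested, with medians of 0.15, 0.15 and 0.10. Ppargc1a, a coactivator known to raise expression of the nuclear subunits, went from 13.5 ± 0.626 to 26.1 ± 2.2 CPM between days 0 and 28 in WT, 0.96 ± 0.13 (SE; edgeR adjusted p = 2.40e-05). It was lower in ATLD, with a log2 difference of -1.25 ± 0.14 (SE; edgeR adjusted p = 2.25e-07) at day 14 and -1.43 ± 0.14 (SE; edgeR adjusted p = 3.88e-08) at day 28. Its relative Ppargc1b was lower, at -2.34 ± 0.38 (SE; edgeR adjusted p = 3.05e-05) at day 28. Slirp, which stabilises mitochondrial mRNAs and is a short gene, was higher in ATLD by 1.47 ± 0.21 (SE; edgeR adjusted p = 1.43e-05) at day 0. Tfb1m, the methyltransferase of the mitochondrial ribosome, fell within ATLD from 14.2 ± 1.38 to 8.55 ± 0.504 CPM between days 0 and 28, -0.73 ± 0.11 (SE; edgeR adjusted p = 7.08e-05). Of the 14 genes linked to low oxygen, 10 were called higher and 1 lower in WT at day 14, 9 and 0 at day 28, and in ATLD 1 and 0 at day 14 and 4 and 1 at day 28. Of all genes tested, 15.2% and 15.1% were called higher and lower in WT at day 14, 12.3% and 12.4% at day 28, and in ATLD 5.18% and 6.49% at day 14 and 14.1% and 15.7% at day 28. The list holds Cox4i2. Ndufa4l2, a low-oxygen relative of Ndufa4 that the name rule leaves out, went in WT from 0.137 ± 0.158 to 125 ± 61.9 CPM between days 0 and 14 (SD, n = 3 each). The mitophagy receptor Bnip3 went from 7.87 ± 0.529 to 90.5 ± 10.5 CPM, 3.53 ± 0.22 (SE; edgeR adjusted p = 1.39e-09). Its change over time differed between the genotypes by -2.96 ± 0.29 (SE; edgeR adjusted p = 6.32e-07) at day 14, lower in ATLD as for Cox4i2.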

How the data were processed

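RNA selected for poly(A) was sequenced from 18 organoid samples, with second runs of 3 of them (21 libraries). The authors deposited raw counts per gene, unnormalized, with a gene length in bases (another unit, used for levels per kb). Counting with featureCounts on mm10, and DESeq2, are named per the submitters' processing notes. Not given in the sources used here are the aligner, the annotation release, the strand setting and the treatment of reads that match several places. All 55536 gene IDs matched GENCODE vM21. The members and the gene lists were chosen with earlier results of these data known.

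Counts were filtered with filterByExpr (minimum count 10, minimum total 15), scaled by TMM and tested with edgeR 4.0.16 (quasi-likelihood, R 4.3.3) over all genes with Benjamini-Hochberg adjustment, calling adjusted p under 0.05. Day comparisons and the interaction were fitted on the 18 original libraries (12 residual degrees of freedom, 18684 genes). Comparisons of genotypes used 21 libraries with a term for sequencing (18844 genes, 14 residual degrees of freedom), which called 1 member. Replicate 1 of each WT day thus entered with both its runs, which are not independent samples. The fits were tested on simulated counts. Genes were named by size: per comparison and direction, up to 4 called members with non-overlapping groups and a mean log2 CPM of at least 1, beside the mt genes, complex II and the Cox and Atp5g isoforms given for their role. The catalytic and core subunits given, Uqcr11, Atp5d, Ndufc1 and Cox5a were chosen after their values were seen. Lists name up to 3 called genes per comparison. Alternatives were another normalization, no filter, DESeq2 1.42.0, GC and length offsets, a replicate block, other sample sets and each replicate left out. A GC offset was available for 55450 genes.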

Additional observations from a re-analysis of the deposited data

Results flagged for a closer look

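In 8 tests the change from day 0 differed between ATLD and WT by the interaction term of edgeR. Cox4i2 had the largest, at -3.42 at day 14 and -2.16 at day 28 (log2, ATLD change minus WT change). Cox6b2 followed at -1.86 and -1.90. Cox7a1 went the other way, at 1.18 and 1.09. Uqcrh, at -0.71, and Cox7a2l, at -0.73, differed at day 28. All 5 genes are nuclear.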

How the results depend on the processing

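Of the 122 single-gene differences called, 74 were called under every alternative. Across their 2007 alternative values, 168 were no longer called and 1 changed sign (mt-Nd4 between genotypes at day 0, -0.304 with the GC and length offset). The genotype counts moved by less than 1.5 times in all alternatives. Other counts of called members moved, and the cause was not tested. In WT from day 0 to 14 the count of 13 became 21 with the GC and length offset, 20 with all 21 libraries and 22 without the 3 WT libraries that stand apart, a setting chosen after seeing the data. From day 0 to 28 in WT, 4 became 8 with the GC offset, 10 with the GC and length offset, 7 with the compared groups alone, 7 with all 21 libraries and 7 without the 3 libraries. From day 14 to 28 in WT, 0 became 1 with DESeq2 and 1 with all 21 libraries. In ATLD, 0 at day 14 became 3 with either offset, and 3 at day 28 became 5 without a filter, 8 with the GC offset and 19 with the GC and length offset. From day 14 to 28 in ATLD, 5 became 8 with DESeq2, 14 with the GC and length offset and 9 with the compared groups alone. The interaction count of 3 at day 14 became 6, 9 and 7 with the GC offset, the GC and length offset and without the 3 libraries, and that of 5 at day 28 became 10 with the GC offset and 17 with the GC and length offset.

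With 1 replicate left out at a time, the counts ran from 7 to 33, 3 to 5 and 0 to 23 in the 3 WT comparisons of days. In those of ATLD they ran from 0 to 0, 0 to 7 and 1 to 6. Between genotypes they ran from 59 to 72, 67 to 78 and 62 to 72 at days 0, 14 and 28. For the interaction they ran from 2 to 15 and 3 to 6. Between genotypes, leaving out a WT replicate 1 removed both its original and its resequenced run. Of 45 same-number pairs of libraries, 16 had correlated deviations over 0.1 (range -0.974 to 0.871). WT day 14 replicates 1 and 3 correlated with WT day 28 replicate 2 at 0.961 and 0.94, and these are the 3 libraries that stand apart. With this shift between libraries and 3 libraries per group, the correlations cannot decide whether replicate numbers pair the samples. A replicate block gave 11 and 4 calls for WT days 14 and 28, 2 for ATLD day 28, 1 from day 14 to 28 in ATLD, 69, 73 and 64 between genotypes, and 3 and 4 for the interaction. Depth limits Cox4i2 in ATLD (2 to 29 counts) and mt-Co3.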
